A study of Mus musculus with 48 samples.

Results

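The 10 genes described here belong to the growth hormone axis of the liver, or are known to respond to growth hormone there: Ghr, Stat5b, Igf1, Igfals, Socs2, Cish, Bcl6, Cux2, A1bg and Egfr. They were taken by symbol from the 29221 genes counted in whole-liver RNA of 48 mice, and all 10 were found. They were chosen by name with earlier results of these data in view, CPM levels and called differences between groups of these same livers, so their tests describe the livers and are not independent evidence. All mice carried a floxed Pparg gene, the gene of the nuclear receptor PPARγ, and were given an adeno-associated virus of serotype 8 after 16 weeks on diet. The virus carried the hepatocyte-directed TBG promoter with Cre (AAV8-TBG-Cre, labelled knockout) or without it (AAV8-TBG-null, control), so control livers had also received virus. Females ate a low fat diet (LF, labelled healthy) for 34 weeks, a high fat diet (HF, labelled liver steatosis) for 34 weeks, or 18 weeks of HF followed by 16 weeks of a diet rich in fat, cholesterol and fructose (HFCF, labelled NASH). Males ate HF or HFCF on the same schedule, and no male LF group was analysed here. Each of the 4 male groups had 6 livers and each of the 6 female groups had 4. The mice are labelled only as adults. Males and females carry separate ranges of animal numbers, so sex and cohort cannot be told apart. Among females, most HFCF livers carry lower animal numbers than every HF liver, so diet and number range partly coincide there.

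Growth hormone binds its receptor on hepatocytes and, through the kinase JAK2, activates the transcription factor STAT5B. STAT5B turns on Igf1 and Igfals, whose secreted products form the circulating IGF complex, and also Socs2 and Cish, whose products damp the signal. The pituitary releases growth hormone in separated pulses in male rodents and more evenly in females, and in the mouse this difference drives much of the sex difference in liver gene expression. CUX2 is a female-enriched and BCL6 a male-enriched repressor in this tissue. A1bg, an α1B-glycoprotein, is known as a female-predominant liver transcript. Egfr encodes the epidermal growth factor receptor, whose liver level is known to depend on growth hormone.

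The letters TTCNNNGAA, the core that STAT5 proteins are known to bind, were looked for in RefSeq start-site windows (GRCm38.p6, 250 bases before to 50 after each start). These letters read the same on both strands. Of the 10 genes, 9 matched an entry by symbol and Socs2 did not. The letters stood in 6 of the 15 windows of these genes, against 8.30% of all 32851 windows, and in 4 of the 9 genes, against 9.55% of all 27025 genes. The Cish window held the letters in a pair right at the start of the RefSeq transcript, beginning at bases 1 and 12 of it. The stretches shown are the Cish pair (chromosome 9, 107296654 to 107296683, plus strand), the A1bg match 84 bases before its start (chromosome 15, 60921336 to 60921364, minus strand), and the Igfals match 58 bases before a start (chromosome 17, 24878163 to 24878191, plus strand). A Bcl6 match 118 bases before its outermost start (chromosome 16, 23988952 to 23988980, minus strand) completes the set. They are shown because these genes are feedback, female-patterned, circulating-complex and repressor members in turn, and capitals mark the matching letters:
Cish: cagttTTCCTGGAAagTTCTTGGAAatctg
A1bg: tgcccctaccTTCCAGGAAgggcaaacaa
Igfals: ctgccaggtgTTCCTAGAAgaggccctgg
Bcl6: agcaaattagTTCTCAGAAttccagaggc
A match is a description of the letters, not a measured site. No match was found in the windows of Ghr, Stat5b, Igf1, Cux2 or Egfr, which says only that these letters are absent from those windows.

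Libraries held 15338239 to 22072884 reads on genes. Values are CPM, reads of a gene relative to its library's total after TMM scaling, a factor per library that offsets differences in composition. Differences are log2 fold changes with their standard error (SE) from edgeR's quasi-likelihood F test, and a gene is called where the p-value adjusted over all genes tested is under 0.05. Xist was at 518 to 1355 CPM in the 24 female libraries and at most 0.446 CPM in the 24 male ones, and reads on 4 Y-linked genes were 0 in every female library. Pparg itself was not lower in the labelled knockouts: in HF males it averaged 34.2 CPM in controls and 41.1 CPM in labelled knockouts. On HFCF its mean was higher in labelled knockouts, with no overlap: 56.3 against 32.3 CPM in males and 45.8 against 23.7 CPM in females. Its whole-gene count does not separate the deleted exons, so the groups are called labelled knockout. Cidec, a known PPARγ target, averaged 134 CPM in HF control males and 5.22 CPM in HF labelled-knockout males. In LF females it averaged 6.90 CPM in controls and 6.06 CPM in labelled knockouts, with overlapping ranges, so it does not check the label there. The summed CPM of the hepatocyte markers Alb, Apoa1, Ttr, Cps1 and Cyp2e1, most of it Alb, had a group median of 101510 to 115961 in LF and HF females and 63772 to 75865 in HFCF females. In males the median was 78550 in HF controls, 105535 in HF labelled knockouts, 51934 in HFCF controls and 60115 in HFCF labelled knockouts. The macrophage marker sum differed the other way, with a median of 169 CPM in HF control males and 438 CPM in HFCF control males, and 120 and 452 CPM in the female controls. In whole liver, fewer hepatocytes, less RNA per hepatocyte and lower levels of the marker genes themselves cannot be told apart. The fat marker Adipoq reached at most 0.109 CPM.

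Per kilobase of the deposited gene length, the members with the highest means in LF control females were A1bg (278 CPM per kb), Igfals (96.0), Igf1 (70.3) and Ghr (54.7). The lowest means were those of Socs2 (7.11), Cish (6.05) and Bcl6 (3.93). A1bg had an SD of 267 CPM per kb (n = 4) and ran from 126 to 1551 CPM, so its first place is that of a mean. In HF control males the order was led by Ghr (62.2 CPM per kb), Igf1 (43.4) and Igfals (32.8), and closed by Cux2 (0.0600) and A1bg (0.0314). The plot of the 8 genes on linear axes shows 3 kinds of pattern: Stat5b at similar CPM in all groups, Ghr, Igf1 and Igfals lowest on HFCF within each sex, and Socs2, Cish, Bcl6 and Egfr widely scattered among livers of the same group.

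**Figure D1:**
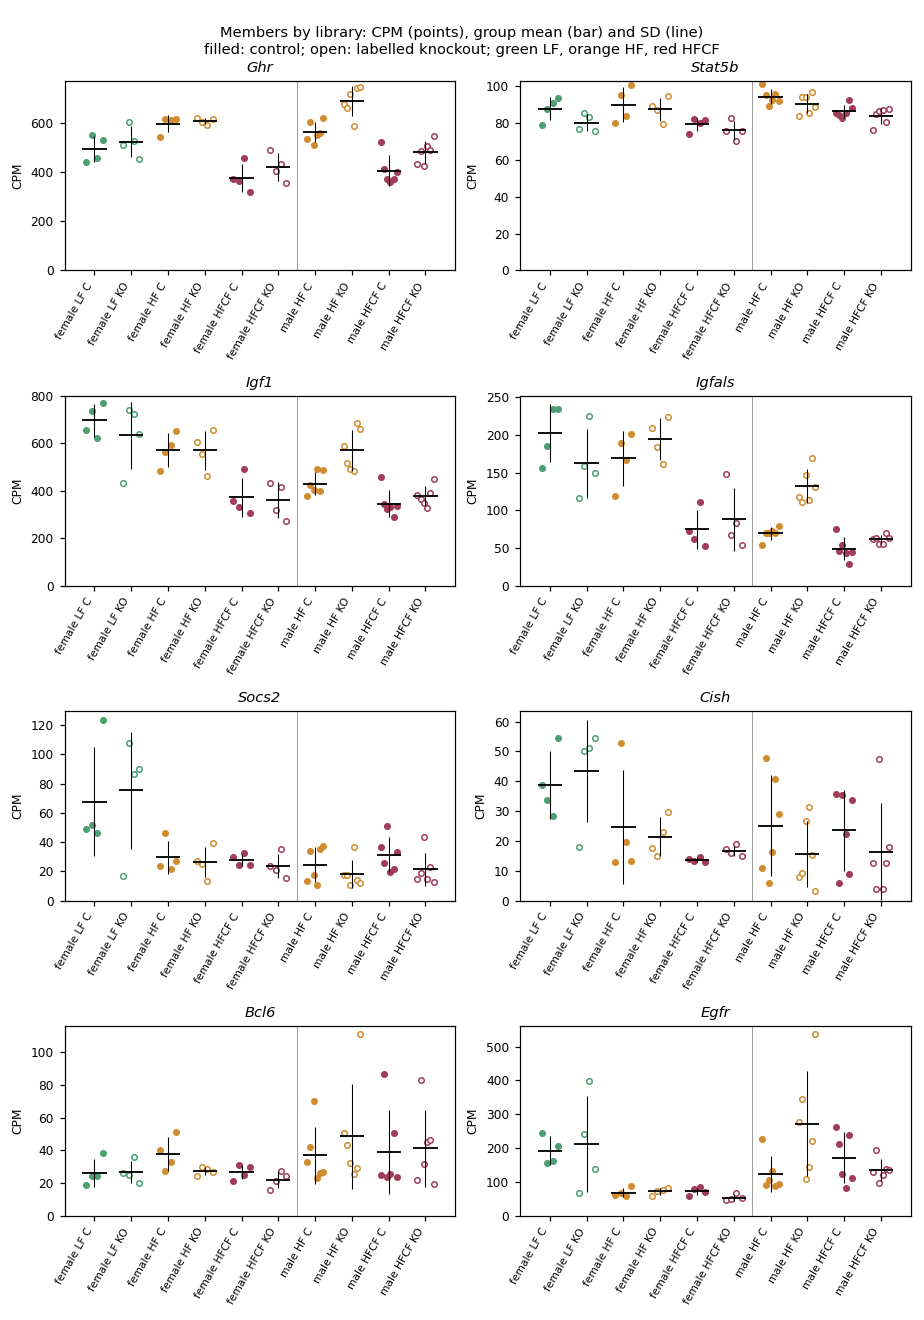
CPM of 8 members in each of the 48 libraries (points) by group, with the group mean (bar) and SD (line); filled points are controls and open points labelled knockouts. Stat5b group means lie between 76.1 and 94.4 CPM, while male Cish runs from 3.31 to 47.9 CPM.

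Among the receptor and signalling genes, Stat5b (ENSMUSG00000020919, GRCm38 chromosome 11, 100780731 to 100850724, minus strand) did not pass the edgeR test in any of the 17 two-group comparisons. The DESeq2 Wald test called Stat5b between HFCF and HF in control males. The fit of all groups called it between HFCF and HF in labelled-knockout females and between HFCF and LF in control females. Per summed hepatocyte markers, HFCF minus HF of Stat5b was 0.57 in control females, 0.36 in labelled-knockout females, 0.44 in control males and 0.64 in labelled-knockout males. The part of the marker sum was not tested. Its group means ran from 76.1 ± 5.17 CPM (SD, n = 4) in HFCF labelled-knockout females to 94.4 ± 4.22 CPM (SD, n = 6) in HF control males, and neighbouring groups in that order always overlapped. Its paralog Stat5a is nearly identical in stretches, so reads may be split uncertainly between them. The receptor gene Ghr (ENSMUSG00000055737, chromosome 15, 3317760 to 3583492, minus strand) ran from 378 ± 57.1 CPM (SD, n = 4) in HFCF control females to 689 ± 60.1 CPM (SD, n = 6) in HF labelled-knockout males. Neighbours in the order of Ghr levels also overlapped throughout. Igf1 lies at chromosome 10, 87858265 to 87937042 (ENSMUSG00000020053, plus strand), and Igfals at chromosome 17, 24878770 to 24882008 (ENSMUSG00000046070, plus strand). The libraries were not strand specific, so the antisense gene Igf1os, with at most 57 reads in a library, cannot be separated from Igf1 where they overlap. Antisense neighbours of Cish, Bcl6, Cux2, A1bg and Egfr had at most 16 reads in any library.

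The comparison of females with males asked how the members differ by sex on the same diet and with the same virus. Cux2 and A1bg were higher in females in all 4 comparisons, Igfals in both HF comparisons and Igf1 in the HF controls, while Egfr was lower in females in 3 of 4. Ghr, Stat5b, Socs2, Cish and Bcl6 did not pass the test in any of the 4, but Socs2 passed in HF labelled knockouts without replicate 4 of the males. In all, 5 of 10 members were called in HF controls and 4 of 10 in HF labelled knockouts, where 18.1% and 14.3% of all genes were called. On HFCF, 2 of 10 were called in controls and 3 of 10 in labelled knockouts, against 2.63% and 5.40% of all genes.

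Cux2, the female-enriched repressor gene (ENSMUSG00000042589, chromosome 5, 121856366 to 122050102, minus strand), was at 34.2, 32.8, 88.6 and 152 CPM in the 4 HF control females. In the 6 HF control males its lowest, median and highest values were 0.297, 0.523 and 1.03 CPM. Every female library was above every male library on every diet. The female minus male log2 difference was 6.95 (SE 0.51, adjusted p = 1.2e-05) in HF controls and 7.72 (SE 0.35, adjusted p = 4.1e-08) in HF labelled knockouts. On HFCF it was 4.51 (SE 0.62, adjusted p = 0.0017) in controls and 4.03 (SE 0.49, adjusted p = 0.00042) in labelled knockouts. The change of this sex difference with diet was −2.46 (SE 1.01, adjusted p = 0.25) in controls and −3.75 (SE 0.79, adjusted p = 0.068) in labelled knockouts, so neither passed the test. The second was called without replicate 1 of the HFCF labelled-knockout females, by the DESeq2 Wald test and without a filter on low counts.

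A1bg (ENSMUSG00000022347, chromosome 15, 60896859 to 60923012, minus strand) was nearly absent in males: all 6 livers of a group together gave 8 reads in HF controls, 2 in HF labelled knockouts, 6 in HFCF controls and 16 in HFCF labelled knockouts. The 4 HF control females held 0.982, 3.55, 1.69 and 5.08 CPM and the 4 HF labelled-knockout females 40.8, 4.70, 1.11 and 28.9 CPM. No female library overlapped a male one. The ratio of summed reads, scaled for depth, was 37.7 in HF controls (exact 95% interval 18.7 to 88.6) and 98.1 in HFCF controls (44.7 to 269). In the labelled knockouts it was 877 on HF (242 to 7250) and 26.2 on HFCF (15.8 to 46.4). These intervals cover counting error only. A1bg was called in all 4 comparisons (adjusted p from 0.00042 to 0.00065), but its fitted fold changes depend on the very low male counts.

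**Figure D2:**
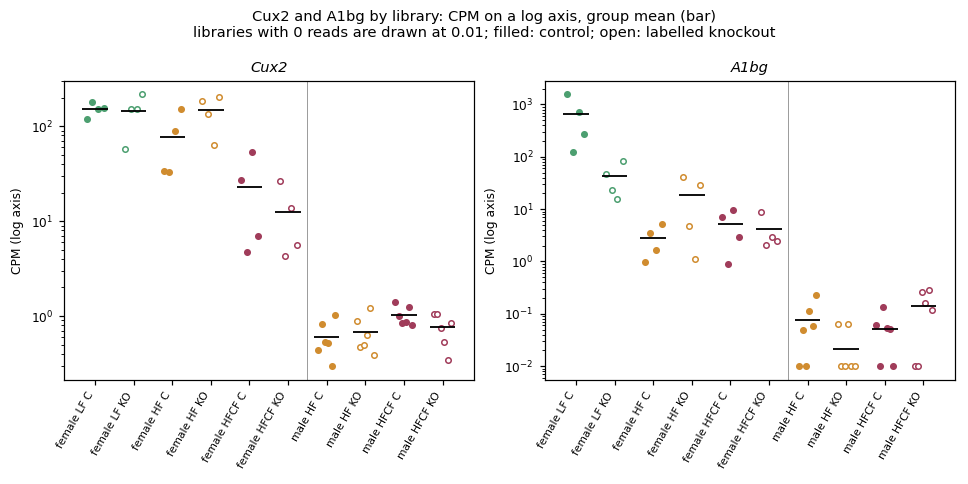
CPM of Cux2 and A1bg in each of the 48 libraries on a log axis, with the group mean as a bar; libraries with 0 reads are drawn at 0.01, filled points are controls and open points labelled knockouts. All female libraries lie above all male libraries for both genes, and A1bg falls from a mean of 667 CPM in LF control females to 2.83 CPM in HF control females.

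Igfals, which encodes the acid-labile subunit that holds IGF1 in the circulating complex, was at 119, 190, 166 and 202 CPM in HF control females and between 53.4 and 79.3 CPM in HF control males, with no overlap. The difference was 1.28 (SE 0.14, adjusted p = 0.00013) in HF controls and 0.57 (SE 0.12, adjusted p = 0.0086) in HF labelled knockouts. On HFCF the differences of 0.62 (SE 0.24, adjusted p = 0.23) and 0.53 (SE 0.22, adjusted p = 0.17) did not pass. Igf1 was higher in females among HF controls, at 482, 563, 593 and 653 CPM against 376 to 490 CPM in males (log2 0.41, SE 0.10, adjusted p = 0.016). In HF labelled knockouts its difference was 0.01 (SE 0.12, adjusted p = 0.98). The Igf1 call was lost without replicate 3 or 4 of the HF control females, where the adjusted p reached at most 0.057. Per summed hepatocyte markers, the HF control difference was −0.04 for Igf1 and 0.82 for Igfals. The part of the marker sum in either difference was not tested.

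Egfr (ENSMUSG00000020122, chromosome 11, 16752203 to 16918158, plus strand) was at 60.2, 66.7, 58.4 and 88.2 CPM in HF control females and had a lowest, median and highest value of 88.2, 99.3 and 228 CPM in HF control males. In HF labelled knockouts the females held 56.8, 72.7, 75.0 and 82.6 CPM and the males 108, 248.8 and 536 CPM in the same order. The groups did not overlap in the labelled knockouts on either diet. The differences were −0.85 (SE 0.26, adjusted p = 0.040) in HF controls and −1.91 (SE 0.38, adjusted p = 0.0057) in HF labelled knockouts. On HFCF they were −1.24 (SE 0.30, adjusted p = 0.054) in controls, which missed the threshold, and −1.33 (SE 0.17, adjusted p = 0.00065) in labelled knockouts. The call in HF controls was lost without replicate 3 or 4 of the males or replicate 2 or 3 of the females (adjusted p up to 0.10), and when all groups entered one fit (adjusted p = 0.086). The HFCF control difference passed by the DESeq2 Wald test, without a filter on low counts and without replicate 1 or replicate 4 of the HFCF control males, and without the first of them Igfals passed as well.

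The lists of sex-biased liver genes gave the wider setting of these members. They hold genes known from the literature to be higher in livers of one sex, and their direction here is a check of the labels rather than a finding. Of the female-biased list, 18 of 19 tested genes were higher in females in HF controls, 21 of 21 in HF labelled knockouts, 18 of 19 in HFCF controls and 20 of 20 in HFCF labelled knockouts. Sult2a2, a hydroxysteroid sulfotransferase gene, was at 243 CPM in HF control females and 0.0336 CPM in HF control males. Of the male-biased list, 14 of 18, 18 of 19, 14 of 19 and 17 of 20 tested genes were lower in females in the same order. Of all genes tested, 18.1%, 14.3%, 2.63% and 5.40% were called in that order. Cyp2d9, a male-predominant cytochrome P450 gene, was at 24.5 CPM in HFCF control females and 619 CPM in HFCF control males. Members of the Cyp2b, Cyp3a, Cyp4a, Sult2a and Mup families have near-identical copies, so reads may be split uncertainly among them.

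Of the other 17 genes of the growth hormone signalling list, 4 were called by sex in HF controls (2 higher and 2 lower in females) and 5 in HF labelled knockouts (2 higher and 3 lower). Of all genes tested, 18.1% and 14.3% were called there. Irs2, an insulin receptor substrate gene, was higher in HF control females (49.1 against 28.8 CPM, log2 0.76, adjusted p = 0.012). Jak2, the receptor's kinase gene, was lower there (23.3 against 30.2 CPM, log2 −0.38, adjusted p = 0.024). On HFCF, 1 of 17 passed in controls (Irs2, higher) and 1 of 17 in labelled knockouts (Ptpn11, lower in females at 71.2 against 98.9 CPM). The shares of all genes called there were 2.63% and 5.40%. The list median was −0.12 in HF controls, where the median of all genes tested was −0.00359.

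Females alone had an LF group, and the HFCF diet against LF gave the most calls among these genes. In control females 8 of 10 members were lower on HFCF and none higher, where 35.2% of all genes tested were called and 16.8% were called lower. Stat5b and Bcl6 were the members that did not pass. In labelled-knockout females 6 of 10 were lower, where 12% of all genes were called and 3.74% were called lower. The members' median log2 difference was −1.37 in controls and −1.11 in labelled knockouts, against −0.0246 and 0.0139 over all genes tested. The median hepatocyte marker sum was 63772 CPM on HFCF and 101510 CPM on LF in control females. Per summed hepatocyte markers, the log2 ratio of mean levels in controls went from −0.90 to −0.23 for Igf1, from −1.45 to −0.79 for Igfals, from −1.29 to −0.62 for Socs2, from −1.50 to −0.81 for Cish and from −0.39 to 0.29 for Ghr. The part of the marker sum in these differences was not tested.

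The feedback genes Cish and Socs2 were among those lower on HFCF. Cish, an early STAT5 target whose product binds the activated receptor (ENSMUSG00000032578, chromosome 9, 107296026 to 107302784, plus strand), was at 38.7, 33.7, 28.3 and 54.7 CPM in LF control females. It was at 13.1, 52.9, 19.5 and 13.2 CPM on HF and at 14.0, 13.2, 14.7 and 13.1 CPM on HFCF. The 4 HFCF livers lay close together and below every LF liver, while replicate 2 on HF stood near the highest LF liver. HFCF minus LF was −1.52 (SE 0.18, adjusted p = 0.00053) in controls and −1.35 (SE 0.28, adjusted p = 0.011) in labelled knockouts. The second call was lost when all groups entered one fit (adjusted p = 0.084). HF minus LF was −0.67 (SE 0.42, adjusted p = 0.46) in controls and −1.02 (SE 0.32, adjusted p = 0.21) in labelled knockouts.

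Socs2, whose product is the main brake on growth hormone signalling in the mouse (ENSMUSG00000020027, chromosome 10, 95385362 to 95417180, minus strand), was at 49.0, 51.8, 46.3 and 124 CPM in LF control females. On HFCF it was at 29.9, 24.1, 32.5 and 24.03 CPM, with no overlap. The difference was −1.31 (SE 0.30, adjusted p = 0.0076) in controls and −1.65 (SE 0.44, adjusted p = 0.031) in labelled knockouts. The labelled-knockout call held in 3 of 8 fits that left out a library. It was lost without replicates 2, 3 or 4 of the LF group or 2 or 4 of the HFCF group (adjusted p up to 0.094). Replicate 1 of the LF labelled knockouts, at 17.0 CPM where the others held 86.6 to 108 CPM, also had the lowest Cish (17.9 CPM), Cux2 (58.1 CPM), Egfr (68.4 CPM) and Igf1 (434 CPM) of its group. Without it, Socs2, Cish and Egfr were called lower on HF than on LF in labelled-knockout females, where 0 of 10 members (0.155% of all genes) were called with it, and 4 had an unadjusted p under 0.05. With it, the DESeq2 Wald test called Cish and Egfr, and the edgeR fit of all groups called Egfr and Socs2.

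Egfr was at 246, 155, 162 and 206 CPM in LF control females, at 60.2 to 88.2 CPM on HF and at 59.3, 77.8, 83.8 and 69.1 CPM on HFCF. The LF livers lay above all livers of the other diets. HF minus LF was −1.50 (SE 0.18, adjusted p = 0.011) and HFCF minus LF was −1.43 (SE 0.17, adjusted p = 0.0006) in controls. In labelled knockouts the differences were −1.55 (SE 0.42, adjusted p = 0.15) and −1.96 (SE 0.41, adjusted p = 0.012). The HF minus LF call in controls was lost without replicate 4 of the LF group or replicate 3 of the HF group (adjusted p up to 0.059). Per summed hepatocyte markers these control differences were −1.54 and −0.71.

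A1bg had its highest levels on LF, and they were far apart: 1551, 126, 717 and 273 CPM in the 4 control livers and 47.6, 23.2, 15.8 and 83.6 CPM in the 4 labelled knockouts. On HF the control livers held at most 5.08 CPM, and on HFCF they held 7.08, 0.906, 9.52 and 2.99 CPM. HFCF minus LF was −7.05 (SE 0.96, adjusted p = 0.00088) in controls and −3.42 (SE 0.57, adjusted p = 0.0046) in labelled knockouts. Between HF and LF, 2 of 10 members were lower on HF in control females, A1bg and Egfr, where 0.696% of all genes were called and 0.253% called lower. For A1bg this difference was −7.90 (SE 0.93, adjusted p = 0.011), a call lost without replicate 3 of the HF controls (adjusted p = 0.058). Control and labelled-knockout LF livers did not overlap either, but that difference of −3.95 (SE 0.79, unadjusted p = 0.00043) had an adjusted p of 0.92 in edgeR, while the DESeq2 Wald test and the fit of all groups called it. The interaction of virus and diet from LF to HF was 6.72 (SE 1.35, unadjusted p = 0.00012, adjusted p = 0.93), which the DESeq2 Wald test and the fit of all groups called.

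Cux2 did not pass the test between LF and HF and was lower on HFCF than on LF. LF control females held 120, 181, 151 and 155 CPM, HFCF control females 27.1, 4.78, 53.8 and 6.94 CPM, and HFCF labelled knockouts 26.6, 4.27, 13.7 and 5.64 CPM. HF labelled knockouts held 187, 135, 62.9 and 201 CPM. HFCF minus LF was −2.72 (SE 0.62, adjusted p = 0.0078) in controls and −3.54 (SE 0.54, adjusted p = 0.0032) in labelled knockouts. HFCF minus HF was −3.56 (SE 0.56, adjusted p = 0.0048) in labelled knockouts and −1.70 (SE 0.75, adjusted p = 0.11) in controls. The control difference passed with all groups fitted together and without replicate 3 of the HFCF controls. HF controls were split, with 34.2 and 32.8 CPM in replicates 1 and 2 and 88.6 and 152 CPM in replicates 3 and 4. Per summed hepatocyte markers, HFCF minus LF was −2.10 in controls and −3.23 in labelled knockouts.

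Ghr, Igf1 and Igfals were lower on HFCF than on HF in both sexes and with both viruses, 12 calls of 12. In control females 3 of 10 members were called, all lower, where 30.8% of all genes were called and 13.8% called lower. In labelled-knockout females it was 4 of 10 lower, against 14.5% called and 6.01% called lower. In control males it was 3 of 9 tested, against 22.3% and 9.31%, and in labelled-knockout males 4 of 9, against 41.7% and 20%. The share of members called in either direction was therefore near that of all genes in control females and in labelled-knockout males.

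Ghr was at 545, 616, 613 and 614 CPM in HF control females and at 370, 364, 457 and 321 CPM in HFCF control females, with no overlap (−0.64, SE 0.12, adjusted p = 0.0070). In labelled-knockout females the difference was −0.53 (SE 0.12, adjusted p = 0.017). Control males fell from a median of 557 to 385 CPM (−0.46, SE 0.09, adjusted p = 0.0031). Labelled-knockout males fell from 698 to 487 CPM (−0.52, SE 0.08, adjusted p = 0.00011), also with no overlap. Replicate 1 of the HFCF control males stood apart at 524 CPM, where the other 5 held 360 to 414 CPM. Against LF, HFCF control females were lower by 0.41 on the log2 scale (SE 0.13, adjusted p = 0.035), a call that held in 3 of 8 fits leaving out a library. It was lost without replicates 2 or 4 of the LF group or 1, 2 or 5 of the HFCF group (adjusted p up to 0.11).

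Igf1 was at 358, 330, 494 and 308 CPM in HFCF control females, against 482 to 653 CPM on HF and 658, 735, 623 and 771 CPM on LF. HFCF minus HF was −0.60 (SE 0.16, adjusted p = 0.022) in control females and −0.66 (SE 0.17, adjusted p = 0.027) in labelled-knockout females. In males it was −0.31 (SE 0.10, adjusted p = 0.044) in controls and −0.59 (SE 0.10, adjusted p = 0.00026) in labelled knockouts. HFCF minus LF was −0.92 (SE 0.16, adjusted p = 0.0023) in control females and −0.80 (SE 0.20, adjusted p = 0.026) in labelled knockouts. Igfals showed the larger differences, from 119 to 202 CPM on HF to 72.2, 62.0, 111 and 53.0 CPM on HFCF in control females. HFCF minus HF was −1.16 (SE 0.24, adjusted p = 0.0092) in control and −1.15 (SE 0.27, adjusted p = 0.021) in labelled-knockout females. In males it was −0.50 (SE 0.16, adjusted p = 0.040) in controls and −1.10 (SE 0.10, adjusted p = 2e-06) in labelled knockouts. HFCF minus LF was −1.46 (SE 0.22, adjusted p = 0.0013) in control females and −0.87 (SE 0.28, adjusted p = 0.065) in labelled knockouts. The second passed by the DESeq2 Wald test, without a filter on low counts and with all groups fitted together. It also passed without replicate 1 of the HFCF labelled knockouts.

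Several of these calls sat close to the threshold. In control males the Igf1 and Igfals calls each held in 2 of 12 fits that left out a library, those without replicate 1 of the HF or of the HFCF group (adjusted p up to 0.10 and 0.086 in the others). Both were also lost when all groups entered one fit (adjusted p = 0.072 and 0.058). In control females the Igf1 call held in 3 of 8 and was lost without HF replicates 3 or 4 or HFCF replicates 1, 2 or 5 (adjusted p up to 0.063). In labelled-knockout females the HFCF minus HF calls held in 3 of 8 fits for Igf1, 3 of 8 for Igfals and 4 of 8 for Ghr. They were lost without HF replicates 1 or 4 or HFCF replicates 2 or 4, and also without HF replicate 2 (Igf1) or HFCF replicate 3 (Igfals), with adjusted p up to 0.086. HFCF minus LF of Igf1 there held in 4 of 8, and was lost without LF replicates 2 or 3 or HFCF replicates 2 or 4 (adjusted p up to 0.088).

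Hepatocyte markers were lower on HFCF in the same livers. Divided by the summed hepatocyte markers, a scaling chosen after seeing the data, the HFCF minus HF difference of Ghr was 0.08 in control females, −0.01 in labelled-knockout females, 0.07 in control males and 0.24 in labelled-knockout males. That of Igf1 was 0.11, −0.16, 0.22 and 0.16 in the same order. That of Igfals was −0.45, −0.72, 0.01 and −0.34. On this scale 3 of the 4 Ghr and 3 of the 4 Igf1 differences therefore changed sign, and Igfals remained lower in 3 of the 4. The part of the hepatocyte, macrophage and stellate markers in the CPM differences was not tested.

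**Figure D3:**
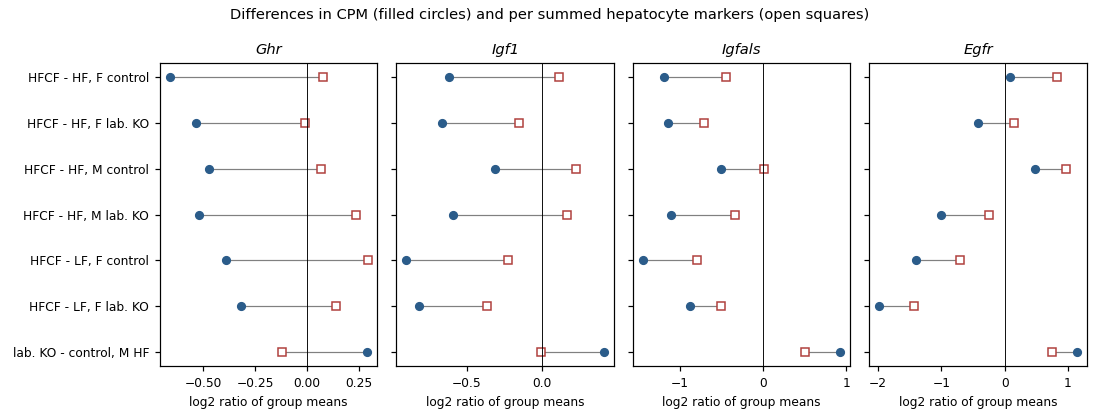
Log2 ratio of group means (x axis) of Ghr, Igf1, Igfals and Egfr in 7 comparisons, from CPM (filled circles) and from CPM divided by the summed CPM of 5 hepatocyte markers in the same library (open squares). For Ghr, HFCF minus HF in labelled-knockout males moves from −0.52 to 0.24, and for Igfals from −1.11 to −0.34.

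In labelled-knockout males Egfr was also lower on HFCF, with a median of 131 CPM against 248.8 CPM on HF (−1.004, SE 0.30, adjusted p = 0.014). In control males it was at 80.7 to 263 CPM on HFCF and 88.2 to 228 CPM on HF and did not pass the test. No difference of a member between diets was shown to depend on the virus or the sex: 0 of the members were called in the 7 interaction tests of edgeR, with 0 to 4 at an unadjusted p under 0.05 in each. Of all genes, 1.56% were called in the interaction of virus and diet in males, 0.00646% and 0.013% in those of diet and sex in controls and labelled knockouts, and 0% in the other 4. The DESeq2 Wald test called 2 of the member interactions, the A1bg and Cux2 values given above. The edgeR shares depended on 1 liver, replicate 1 of the HF control females. Leaving it out gave 1699 genes rather than 1 in the interaction of diet and sex in controls, with 0 members. It gave 287 genes rather than 0 in that of virus and sex on HF, among them Igfals.

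The list of female-biased genes was lower on HFCF in females. Of 21 tested, 13 were lower and 1 higher against HF in controls, 10 lower and 1 higher in labelled knockouts, and 16 and 15 lower against LF, with none higher. Of all genes, 13.8%, 6.01%, 16.8% and 3.74% were called lower in the same order. Prom1, also on the list, was higher on HFCF in labelled-knockout females (13.8 against 3.89 CPM). In control males 9 of 11 tested were lower and 1 (Prom1) higher, with Cyp2b13 at 1.04 against 18.5 CPM, and in labelled-knockout males 6 were lower and 1 higher. Of all genes, 9.31% and 20% were called lower in these males. The list median was −1.77 in control females (HFCF minus HF), against −0.0189 over all genes. Hepatocyte markers were lower in the same groups, as given above. Of the male-biased list, 11 of 20 tested were lower and 1 higher on HFCF in labelled-knockout males, and 1 of 19 lower and 3 higher in control males. The shares of all genes called in either direction were 41.7% and 22.3%. In control females 6 of 15 male-biased genes were lower and 1 higher on HFCF than on HF, and in labelled-knockout females none was lower and 1 higher. There 30.8% and 14.5% of all genes were called. Cyp4a12b, an arachidonic acid hydroxylase gene with a close paralog, was higher on HFCF in control males (40.0 against 4.61 CPM).

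On the signalling list, genes were called in both directions between diets. In control females 3 of 17 were higher and 5 lower on HFCF than on LF, where 35.2% of all genes were called, among them Onecut1, a hepatocyte transcription factor gene (10.3 against 25.6 CPM, −1.33, adjusted p = 0.0026), and Irs2 (45.6 against 67.5 CPM, −0.58, adjusted p = 0.0027). In labelled-knockout females 1 was higher and 1 lower, against 12% of all genes. Compared with HF, 4 were higher and 1 lower in control females (30.8% of all genes called) and 1 lower in labelled-knockout females (14.5%). In males 2 were higher and 1 lower in controls (22.3%) and 4 higher and 4 lower in labelled knockouts (41.7%). Igf1r, the receptor gene of IGF1, was higher on HFCF in control females (10.97 against 5.41 CPM), control males (10.8 against 6.97 CPM) and labelled-knockout males (9.20 against 5.87 CPM).

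The comparison of labelled knockout with control livers asked what hepatocyte-directed Cre in these floxed mice changed. In HF males 4 of 8 tested members were higher in labelled knockouts, where 18.5% of all genes were called and 8.57% were called higher. Igfals was between 53.4 and 79.3 CPM in the controls (median 70.1) and between 111 and 170 CPM in the labelled knockouts (median 124), with no overlap (0.92, SE 0.11, adjusted p = 3.6e-05). Igf1 rose from a median of 414 to 553 CPM (0.40, SE 0.10, adjusted p = 0.0093), and the groups overlapped by a little. Ghr rose from 557 to 698 CPM (0.29, SE 0.07, adjusted p = 0.0099). Those 3 calls held in all 12 fits that left out a library. Egfr rose from 99.3 to 248.8 CPM (1.14, SE 0.33, adjusted p = 0.026). Its call was lost without replicates 3, 5 or 6 of the controls or 2 or 6 of the labelled knockouts (adjusted p up to 0.062), the last of which held 536 CPM. The hepatocyte marker sum was also higher in these labelled knockouts, with 90787 to 107283 CPM against 63016 to 89045 CPM in controls and no overlap. Per summed markers, the difference was 0.50 for Igfals, 0.74 for Egfr, −0.01 for Igf1 and −0.12 for Ghr, and the part of the markers was not tested.

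On HFCF, 0 of 9 tested members were called in males by edgeR or the DESeq2 Wald test (2.21% of all genes in edgeR), and 1 had an unadjusted p under 0.05. Ghr differed by 0.25 (SE 0.10, adjusted p = 0.24) and Igfals by 0.33 (SE 0.16, adjusted p = 0.37). Without replicate 1 of the HFCF control males both were called. That liver had the highest Ghr, Igf1, Igfals and Egfr of its group, the highest hepatocyte marker sum (66523 CPM) and the lowest macrophage marker sum (200 CPM). The change of the labelled-knockout difference from HF to HFCF in males was −0.61 for Igfals (SE 0.20, adjusted p = 0.11) and −1.49 for Egfr (SE 0.46, adjusted p = 0.085). Igfals passed without replicate 5 of the HFCF controls and Egfr without replicate 1 of the HF controls.

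In females 0 of 10 members were called on LF, HF or HFCF, where 0%, 0% and 0.0534% of all genes were. At an unadjusted p under 0.05 there were 1, 2 and 2 members, and the DESeq2 Wald test called A1bg on LF alone. Igfals differed by −0.31 (SE 0.20) on LF, 0.22 (SE 0.16) on HF and 0.27 (SE 0.31) on HFCF. The difference between the sexes in the labelled-knockout effect on HF was not called for any member, and Igfals passed it without replicate 1 of the HF control females, which had the lowest Igfals (119 CPM) and the highest stellate marker sum (545 CPM) of its group. Of the male-biased list, 8 of 18 tested genes were higher in HF labelled-knockout males and none lower, with Mup7 at 40.7 against 1.66 CPM and Slco1a1, an organic anion transporter gene, at 141 against 16.3 CPM. Of all genes, 18.5% were called there and 8.57% were called higher. The list median was 0.59, against 0.000204 over all genes. The hepatocyte marker sum was higher in the same livers (90787 to 107283 CPM against 63016 to 89045 CPM in controls, with no overlap), and its part in these differences was not tested. On HFCF, where 2.21% of all genes were called, 2 of 20 male-biased genes were higher and 1 lower in labelled-knockout males, with a median of 0.097. On the female-biased list 2 of 11 were higher on HF, Cyp2b13 (81.1 against 18.5 CPM) and Slc22a26 (6.70 against 1.62 CPM), and Tox was lower on HF, while on HFCF 3 of 11 were higher and none lower. Of the 17 genes of the signalling list, 1 was higher and 1 lower in HF labelled-knockout males, where 18.5% of all genes were called. On HFCF 0 were higher and 1 was lower, where 2.21% of all genes were called. The lower gene was Stat5a, the paralog of Stat5b, on HF (22.6 against 32.5 CPM, −0.52, adjusted p = 0.0027) and on HFCF (24.8 against 32.4 CPM, −0.38, adjusted p = 0.021).

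Male livers of the same group differed more in Cish, Bcl6 and Socs2 than in Ghr and Stat5b. Among the 13261 genes whose male mean reached 1 CPM, the within-group SD of log2 CPM was 1.21 for Cish, the 15th most variable, and 0.734 for Bcl6, the 173rd. It was 0.650 for Socs2 and 0.627 for Egfr. Stat5b, at 0.0721, was among the least variable, and the median of all genes was 0.177. In females A1bg (1.49, the 29th of 13312 genes) and Cux2 (1.04, the 120th) led, followed by Socs2 (0.698), Cish (0.556) and Egfr (0.502), while Bcl6 (0.332) was below Igfals (0.409), with a median of 0.227 over all genes. Whether the spread of Cish or Bcl6 differs between the sexes was not tested.

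**Figure D4:**
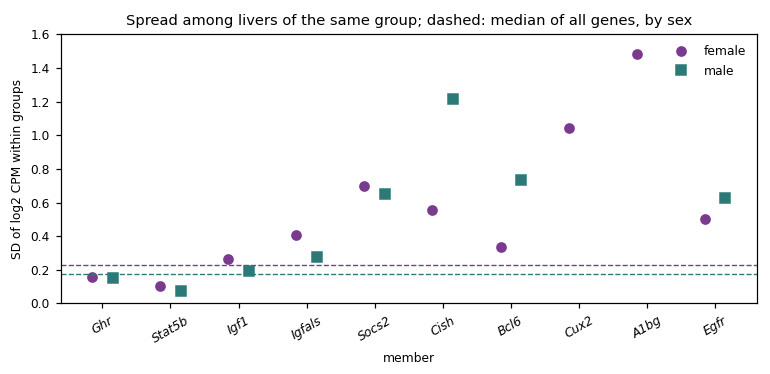
SD of log2 CPM among livers of the same group for each member in 24 female (circles) and 24 male (squares) libraries; dashed lines are the medians over all genes of each sex, 0.227 and 0.177. Cish in males (1.21) and A1bg in females (1.49) stand highest, and Cux2 and A1bg have no male value because their male mean is under 1 CPM.

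In males, livers low in Cish tended to be high in Bcl6, which encodes a repressor that shares DNA sites with STAT5 (ENSMUSG00000022508, chromosome 16, 23965052 to 23988852, minus strand). Among HFCF control males, replicates 2 and 5 held 5.90 and 8.93 CPM of Cish and 86.5 and 50.3 CPM of Bcl6, while the other 4 held 22.2 to 35.7 CPM of Cish and 23.6 to 25.5 CPM of Bcl6. Among HF labelled knockouts, replicate 6 had the lowest Cish (3.31 CPM) and the highest Bcl6 (111 CPM) and Egfr (536 CPM). Among HF controls, replicate 3 had the lowest Cish (5.92 CPM) and the highest Bcl6 (70.1 CPM). Among HFCF labelled knockouts, replicate 2 held 4.01 CPM of Cish and the highest Bcl6 (82.7 CPM). All 4 male groups thus held such a liver, but the relation was not tested within any single group. Not every liver followed it: replicate 2 of the HF controls had the highest Cish of its group (47.9 CPM) and 42.2 CPM of Bcl6, more than all but replicate 3.

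Over all 24 male livers, after subtracting each group's mean of log2 CPM, Cish and Bcl6 had Pearson r = −0.767 (permutation adjusted p = 0.0024) and Spearman rho = −0.622 (adjusted p = 0.025). Without the 2 livers farthest from the median of Cish, r was −0.688. Cish and Egfr had r = −0.638 (adjusted p = 0.010), rho = −0.661 (adjusted p = 0.021) and r = −0.631 without 2 livers. In the 24 female livers, Cish and Bcl6 had r = −0.213 and rho = −0.130 (adjusted p = 0.66 and 0.77), and Cish and Egfr 0.461 and 0.441 (adjusted p = 0.30 and 0.19). Whether the sexes differ in these relations was not tested. Permutations were made within groups, 100000 for each pair, and p-values were adjusted over 73 pairs. The hepatocyte marker sum had r = 0.227 with Cish and −0.0896 with Bcl6 in males (adjusted p = 0.40 and 0.74 over 18 relations).

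Ghr, Igf1 and Igfals varied together among livers of a group in both sexes. Igf1 with Igfals had r = 0.822 and rho = 0.794 in females (adjusted p = 0.0015 and 0.0026) and r = 0.723 and rho = 0.637 in males (adjusted p = 0.0093 and 0.025). Without the 2 farthest livers r was 0.789 and 0.546. Ghr with Igf1 had r = 0.740 and rho = 0.820 in females (adjusted p = 0.0094 and 0.0026) and r = 0.715 and rho = 0.590 in males (adjusted p = 0.0089 and 0.034). Without the 2 farthest livers r was 0.637 and 0.560. In females Igf1 also moved with Cux2 (r = 0.817, rho = 0.770, adjusted p = 0.0022 and 0.0026, r = 0.772 without 2 livers). Socs2 and Cish moved together in females (r = 0.745, rho = 0.704, adjusted p = 0.031 and 0.032, r = 0.611 without 2 livers). In males this pair passed by Pearson's r alone (r = 0.577, rho = 0.533, adjusted p = 0.036 and 0.059, r = 0.427 without 2 livers). By Spearman's rho, 11 of 45 pairs passed in females, 10 of them positive, and 5 of 28 in males, 3 of them positive. The hepatocyte marker sum had r = 0.637 with Ghr in males and 0.589 with Igf1 and 0.650 with Igfals in females (adjusted p = 0.060, 0.060 and 0.090), and without 2 livers r was 0.444, 0.479 and 0.353.

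**Figure D5:**
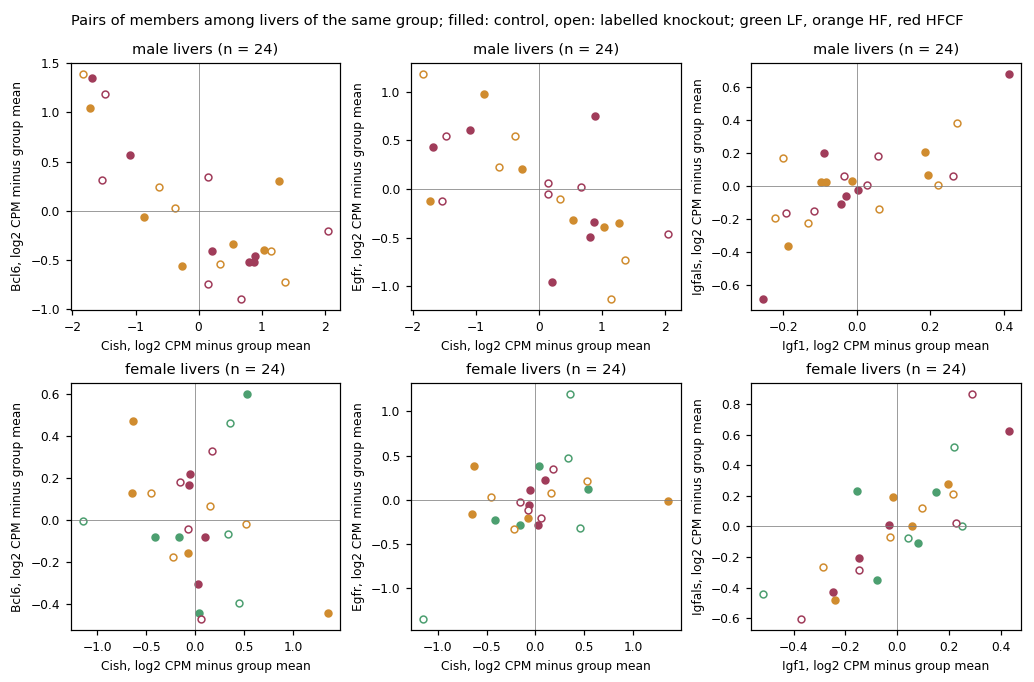
Each point is 1 liver, placed by its log2 CPM minus the mean of its group, for Cish and Bcl6, Cish and Egfr, and Igf1 and Igfals in 24 male (top) and 24 female (bottom) livers. Cish and Bcl6 slope downward in males (r = −0.767), and Igf1 and Igfals slope upward in both sexes (r = 0.723 and 0.822).

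Across the 12367 genes searched, the pattern most like that of Cish among livers, by Spearman's rho of group-centred log2 CPM over 48 libraries, was that of Arid5b (0.891), followed by Phlda1 (0.840) and Foxa2 (0.832). For Igfals these were Cyp2e1 (0.876), Adtrp (0.873) and Dpys (0.859), for Ghr Car8 (0.850), Slco1b2 (0.840) and Slc10a1 (0.837), and for Igf1 the nearest was Proz (0.811). Cyp2e1 is also part of the hepatocyte marker sum by which the members were divided above. For Bcl6 the nearest was Prox1 (0.664), for Socs2 Rgs3 (0.758), for Egfr Mtss1 (0.670), for Stat5b Lrig1 (0.701), for Cux2 Atg3 (0.731) and for A1bg Tgds (0.643). These genes were picked as the highest of all, so the coefficients describe these libraries and carry no test.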

How the data were processed

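Whole-liver RNA was sequenced in 48 libraries. The deposited values are raw read counts per gene, 1 column per library, per the file headers; STAR 2.6.1, HTSeq 0.6.1 and the builds GRCm38 and mm10 are named per the submitters' processing notes, with no role given. The libraries were not strand specific, per the labels. The 11 deposited tables were joined by gene ID into 29221 genes by 48 libraries, and 0 of 1341082 repeated values differed. Every column of values was matched to a library (0 left over). Depth was 15338239 to 22072884 reads on genes per library, so values of a few CPM or less rest on few reads.

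Counts were scaled by TMM, filtered by filterByExpr and tested with edgeR 4.0.16 (R 4.3.3), each comparison fitted to its own groups, with Benjamini-Hochberg adjustment over all genes tested. There were 17 comparisons of groups (4 by sex, 5 by virus, 8 by diet) and 7 interactions. The members and gene lists were chosen with earlier results of these data known. Besides the members, up to 4 called genes of each list with the largest change per comparison are named, with the 3 genes most like each member. Log2 CPM for spread and pairs used a prior count of 2. The test was checked on counts simulated with the same spread for every gene. Changes of 1 on the log2 scale were recovered in 88.9% (sex, HF controls), 92.7% (virus, HF males) and 80.6% (HF against LF, control females). The spread was not matched to single genes, so the check does not cover widely scattered members such as Cish or A1bg. Each library has its own animal number in the labels, so p-values measure the spread between livers. The closest pairs of libraries in a group differed by 3.03 to 6.16 times counting noise. Same-numbered livers did not deviate together in every pair of any comparison. Alternatives were DESeq2 1.42.0 (size factors, Wald test), other filters, all groups in one fit, a replicate block, a fold threshold, leaving out each library, and scaling by hepatocyte markers. Some single-gene values that the naming rule would give are not reported here.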

Additional observations from a re-analysis of the deposited data

Results flagged for a closer look

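In groups of 4 or 6 livers, 13 of 100 combinations of member and group held a library flagged by Dixon's criterion (95% level). The gap of such a library to its nearest neighbour was too large for the group's range. Chance gives about 1 in 20 for independent, normally distributed values. The values here were CPM without a log, and members varied together, so an excess over chance was not tested. Among HFCF control males replicate 1 stood above the others in Ghr (524 CPM) and Igf1 (456 CPM), and among HF control males replicate 1 stood below in Igfals (53.4 CPM) and above in Egfr (228 CPM). Among labelled-knockout males, Socs2 was apart in HF replicate 4 (36.7 CPM) and HFCF replicate 3 (43.6 CPM), the second also in Cish (47.5 CPM), and Bcl6 was apart in HF replicate 6 (111 CPM). Among females, Ghr was low in HF control replicate 1 (545 CPM), Socs2 was high in LF control replicate 4 (124 CPM), and Cish was low in LF labelled-knockout replicate 1 (17.9 CPM) and high in HF control replicate 2 (52.9 CPM). A1bg was high in HFCF labelled-knockout replicate 1 (8.996 CPM), which also had the highest Igfals of its group (149 CPM), the highest hepatocyte marker sum (112122 CPM) and the lowest Xist of the female libraries (518 CPM).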

How the results depend on the processing

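Apart from the scaling by hepatocyte markers, none of the 48 member calls changed direction, and 31 kept their side of the threshold in every other fit that tested them, fold-size limits aside. With the filter of at least 10 counts in every library, calls by sex fell from 14 to 7, because A1bg is then not tested in any of the 4 comparisons and Cux2 in 3 of them. When calls also needed an absolute log2 change of 1 or more, those by virus fell from 4 to 1 and between diets from 30 to 18. Interactions gave 0 calls, but 2 by the DESeq2 Wald test, 1 without a filter, 1 with all groups in one fit and 1 with a replicate block. Leaving out 1 library gave 12 to 16 calls by sex, 3 to 6 by virus, 25 to 33 between diets and 0 to 1 for interactions. The livers share only a replicate number; with it as a replicate block there were 15, 4 and 21 calls by sex, by virus and between diets. With the block, HFCF minus HF of Igf1, Igfals and Ghr in control females (adjusted p = 0.098, 0.072 and 0.072), of Igf1 and Ghr in labelled-knockout females (0.068 and 0.056) and of Igf1 and Igfals in control males (0.070 and 0.060) missed the threshold, as did HFCF minus LF of Ghr in control females (0.27) and Socs2 in labelled-knockout females (0.060), while Socs2 passed by sex in HF controls. For HFCF minus HF in control females, the block left 0 genes called of all genes, against 4526 without it. The loss there is therefore not particular to these members. Scaled by hepatocyte markers, 11 called differences changed sign, 12 moved by more than the spread and 25 did not. Those that changed sign were Igf1 by sex in HF controls (−0.0444), Ghr (−0.12) and Igf1 (−0.0106) by virus in HF males, HFCF minus HF of Ghr (0.0753) and Igf1 (0.11) in control females, of Ghr (0.0683), Igf1 (0.22) and Igfals (0.0115) in control males, of Ghr (0.24) and Igf1 (0.16) in labelled-knockout males, and HFCF minus LF of Ghr (0.29) in control females; the cause was not tested. Depth limits A1bg and Cux2 in males, where A1bg had 2 to 16 reads per group.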
